A study of Mus musculus with 15 samples.

Results

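Livers of knockout mice (KO), in which the miR-379/miR-410 microRNA cluster is missing from the chromosome received from the mother, were compared across birth: 5 KO pups at P0, the day of birth, against 3 KO fetuses at E19.5, the last day of gestation. These 8 arrays were all the KO samples among the 15 arrays of the series, and were chosen by the genotype and age in the sample labels, with no measured value. The other 7 arrays held wild-type (WT) littermates, 3 at E19.5 and 4 at P0, and entered the same model, where they share in the estimate of each gene's spread, and serve to test where the KO change differed from theirs. All mice were C57BL/6J, so background strain was shared by every group, and animals could eat chow freely. E19.5 fetuses were taken by caesarean section and P0 pups were born naturally, so age and mode of delivery cannot be told apart. The sources used here give neither the hours since birth nor whether pups had fed. Total RNA from snap-frozen whole liver was labelled with Cy3 and hybridised to 1-colour Agilent arrays, 1 sample per array. Nothing in the labels says whether pups of a group came from separate litters, so p-values measure the spread between these samples.

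Birth ends the supply of glucose and amino acids through the placenta. In the hours that follow, insulin falls and glucagon, catecholamines and glucocorticoids act on the liver, which breaks down glycogen and then makes glucose from lactate, glycerol and amino acids. Milk brings fat in place of carbohydrate, and the liver oxidises fatty acids and exports ketone bodies. The fetal liver is also a site of blood formation, which declines after birth.

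MicroRNAs are short RNAs that pair with messenger RNAs mainly through their seed, bases 2 to 8 from the 5′ end. The miR-379/miR-410 cluster lies in the imprinted Dlk1-Dio3 domain and is transcribed from the maternal chromosome, so that a deletion inherited from the mother leaves no active copy. In the RefSeq table of GRCm38.p6, 35 hairpins from the miR-379 hairpin to the miR-410 hairpin lay on the plus strand at chr12:109709060-109743795 and gave 69 mature microRNAs. These had 63 different seeds, and 6 of the seeds were shared by a pair of mature microRNAs each, 12 in all. The mature forms of the 2 hairpins that name the cluster, and the members that share a seed with another, are shown here 5′ to 3′ with the seed in capitals, because the deletion removes them on the active chromosome; the array itself measured no mature microRNA.
miR-379-5p: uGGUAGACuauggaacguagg
miR-1193-5p: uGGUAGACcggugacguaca
miR-379-3p: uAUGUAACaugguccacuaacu
miR-411-3p: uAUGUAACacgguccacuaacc
miR-410-5p: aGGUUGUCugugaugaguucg
miR-494-5p: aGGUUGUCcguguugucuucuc
miR-410-3p: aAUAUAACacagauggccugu
miR-1197-5p: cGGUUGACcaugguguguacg
miR-758-5p: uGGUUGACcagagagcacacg
miR-453: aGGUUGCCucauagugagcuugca
miR-496a-5p: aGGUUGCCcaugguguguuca
miR-376b-5p: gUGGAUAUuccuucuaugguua
miR-376c-5p: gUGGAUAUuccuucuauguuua
In this list each seed-sharing pair stands on neighbouring lines, and miR-410-3p is shown without a partner.

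A level below is the log2 signal of a gene's brightest probe minus the array's 75th percentile over all probes, so 0 is the level of that percentile, and a difference is a log2 difference between KO P0 and KO E19.5 group means with its standard error (SE) from limma. A gene is called where limma's p, adjusted over the 22606 tested genes by the Benjamini-Hochberg method, is below 0.05. The transcript Mirg, whose probe lies at chr12:110987569-110987628 (mm9, plus strand) and whose gene hosts part of the cluster, was at -1.09, -1.42 and -1.51 in KO E19.5 liver and at -1.57, -1.34, -1.52, -1.41 and -0.41 in KO P0 liver. In WT liver Mirg was at 2.34, 2.19 and 1.88 before birth and at 1.64, 1.79, 1.15 and 1.20 after it, above every KO array. The sources used here do not give the ends of the deletion, so whether the probe lies inside it is not known here. Between 57.7% and 63.5% of probes were well above background on the KO arrays and no spot was saturated. The slides, each scanned once, did not balance the ages: slide 1 held 1 KO E19.5 array, slide 2 held 2 KO E19.5 and 2 KO P0 arrays, and slide 3 held 3 KO P0 arrays. The 57 brightest genes followed overall array brightness with a median slope of 0.23, against 0.83 to 1.01 for bins of dimmer genes above a log2 signal of 8. The slopes were fitted over all arrays without a term for age. KO P0 arrays were the brighter ones (mean log2 75th percentile 9.16, against 8.93 at E19.5). Differences of the brightest genes, Alb and Afp among them, may be distorted, which cannot be told apart here from a change with age. Hepatocyte transcripts stood at the top of the scale, with Alb at 9.86 to 10.17 on the 8 KO arrays. A few arrays also held transcripts of neighbouring tissues: skeletal muscle genes had a median level of -1.73 on KO P0 replicate 5 against -3.72 to -3.27 on the other 7 KO arrays, and kidney, lung and skin genes one of -0.36 on KO P0 replicate 2 against -3.96 to -2.92.

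The first principal component of the 8 KO arrays held 46.2% of the variance and separated the ages. Of 22606 genes, 4518 were called (20%), 1938 higher at P0 (8.57%) and 2580 lower (11.4%), and 7775 had an unadjusted p below 0.05 (34.4%). At least 2-fold changes were fewer: 1083 genes (4.79%), with 458 higher (2.03%) and 625 lower (2.76%). The 3 fetal and 5 newborn arrays did not overlap for 7091 genes (31.4%), and 4245 of these were also called (18.8%). The median difference over all genes was -0.04. The counts of each gene list below are to be read beside these shares, 8.57% higher and 11.4% lower. The lists and their members were chosen with earlier results of these data known, so the counts describe and do not test. These counts depended on how slides and scaling were treated. With only the 8 KO arrays in the model 4418 genes were called, and 3695 of the 4518 (81.8%) kept their call. With slide as a block 2127 genes were called, of which 1919 were among the 4518, and within slide 2 alone, with 2 arrays a group, 1095. Leaving out KO E19.5 replicate 1, 2 or 3 gave 2306, 2494 or 2989 calls. Scaling each array to its median in place of the 75th percentile gave 3058 calls, 56.1% of them higher, against 42.9% in the counts above.

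Several genes of glucose production rose. Of 20 measured members of the gluconeogenesis list, 9 rose and 2 fell, with a median difference of 0.51. Pck1, whose product makes phosphoenolpyruvate in the step that commits carbon to glucose, was at 4.72, 4.11 and 4.51 before birth and at 7.52, 7.99, 7.55, 7.33 and 7.38 after it. The ages did not overlap, and the difference of 3.11 (SE 0.18) was an 8.61-fold rise (adjusted p = 5.75e-07). G6pc, the glucose 6-phosphatase that releases free glucose, went from 5.72, 5.43 and 5.60 to 7.02, 8.09, 7.15, 7.47 and 7.08, 3.43-fold higher (difference 1.78, SE 0.20, adjusted p = 7.38e-05). Slc37a4, the transporter that feeds it, rose by 0.67 (SE 0.13, adjusted p = 0.0031), although the mean of its probes gave 0.35 (adjusted p = 0.149). Fbp1, the fructose 1,6-bisphosphatase of the same route, was already at 8.59 to 8.77 before birth and stood at 8.48 to 8.71 after it, with overlapping ages (difference -0.08, adjusted p = 0.557). Ppargc1a, a coactivator that switches on this programme in fasting, was at 2.17, 1.98 and 2.06 before and 2.83, 3.56, 2.75, 2.68 and 2.93 after birth, a rise of 0.88 (SE 0.18, adjusted p = 0.00487), and Cebpb, a transcription factor of hepatocytes, rose by 0.67 (adjusted p = 0.00174). Within slide 2 alone neither passed (adjusted p = 0.0509 and 0.0894). When slide was fitted as a block, 9 members rose and 0 fell.

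**Figure D1:**
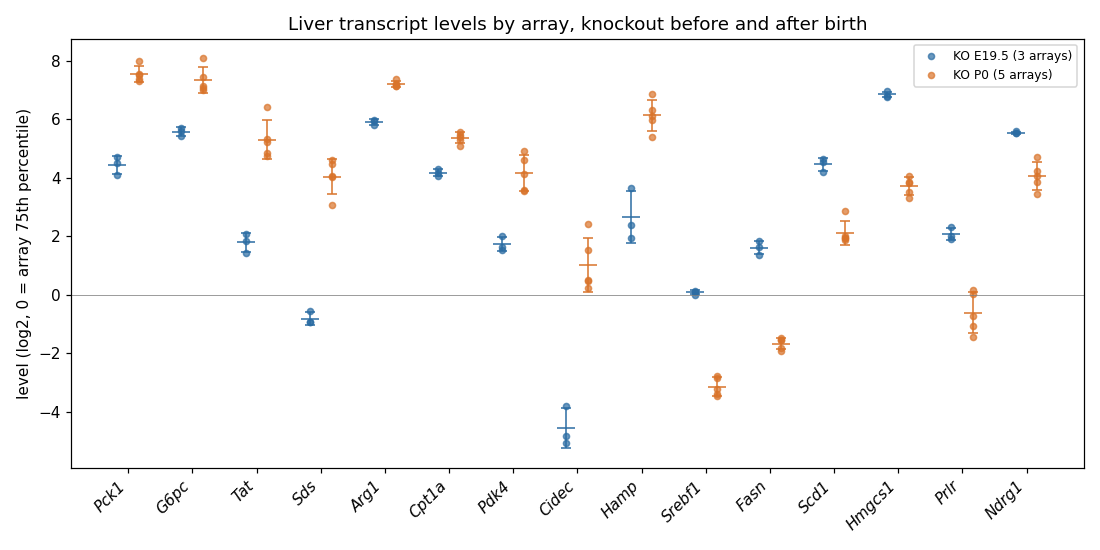
Level (log2, 0 = the array's 75th percentile) of selected genes on each of the 3 KO E19.5 and 5 KO P0 arrays; each point is 1 array, the long dash is the group mean and the bars are 1 SD. Pck1, Sds and Tat sit higher on all 5 newborn arrays and Srebf1, Fasn and Hmgcs1 lower. Sds, Srebf1 and Fasn were chosen among genes whose ages did not overlap.

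The promoters of Pck1 and Ppargc1a hold the core of the cAMP response element, through which glucagon and catecholamine signals act by way of CREB. They are shown because both genes rose at birth; the windows of G6pc, Tat, Got1 and Cebpb, which rose too, do not hold these letters. Each runs 5′ to 3′ on the gene's strand, from 250 bases before to 50 bases after the RefSeq start in GRCm38.p6, with the motif in capitals.
Pck1: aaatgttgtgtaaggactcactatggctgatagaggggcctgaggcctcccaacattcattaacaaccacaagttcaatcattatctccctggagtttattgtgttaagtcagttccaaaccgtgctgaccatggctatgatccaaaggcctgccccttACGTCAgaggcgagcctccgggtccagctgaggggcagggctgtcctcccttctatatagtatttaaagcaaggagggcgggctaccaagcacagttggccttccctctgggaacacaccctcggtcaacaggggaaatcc
Ppargc1a: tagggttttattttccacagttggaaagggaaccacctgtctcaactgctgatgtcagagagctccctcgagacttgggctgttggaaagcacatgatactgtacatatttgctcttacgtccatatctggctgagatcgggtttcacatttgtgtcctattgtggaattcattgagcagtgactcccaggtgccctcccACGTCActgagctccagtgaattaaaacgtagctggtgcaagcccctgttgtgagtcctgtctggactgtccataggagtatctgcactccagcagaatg
Pck1 was read at chr2:173152823-173153122 (plus strand), with the motif beginning at base -91, and Ppargc1a at chr5:51567676-51567975 (minus strand), with the motif beginning at -50. The letters searched were TGACGT on either strand, so in both windows it reads ACGTCA. They were found in 1489 of 12857 tested genes with a window (11.6%), in 182 of 1254 genes called higher (14.5%) and in 138 of 1517 called lower (9.1%). In the gluconeogenesis list 5 of 17 windows held them (29.4%), and in the list of glucocorticoid and cAMP response genes 6 of 16 (37.5%). The higher share was not particular to these letters. The E-box, CACGTG, was in 1361 of the 12857 windows (10.6%), in 3 of 17 of the gluconeogenesis list (17.6%) and in 6 of 16 of the other list (37.5%). The E2F motif, TTCGCGC, was in 386 (3.0%), in 1 of 17 (5.88%) and in 0 of 16. A match to so few letters is a description of the sequence and was not tested as a binding site.

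Several enzymes that break down amino acids rose. In the list for the urea cycle and amino acid breakdown, 12 of 40 measured genes rose and 5 fell (median 0.36). Sds, Tat and Got1, described next, also belong to the gluconeogenesis list and are counted there. Sds, the serine dehydratase that turns serine to pyruvate, was at -0.95, -0.94 and -0.55 in KO fetuses and at 3.08, 4.60, 4.06, 4.03 and 4.46 in KO newborns, a 29-fold rise (difference 4.86, SE 0.35, adjusted p = 2.04e-06). Tat, the tyrosine aminotransferase long used as a marker of the newborn liver, rose from 1.85, 1.44 and 2.08 to 4.84, 6.43, 4.74, 5.32 and 5.22 (11.5-fold, adjusted p = 2.9e-05). Got1, the cytosolic aspartate aminotransferase, rose from 4.11, 3.86 and 4.67 to 6.92, 7.89, 7.37, 7.60 and 7.78 (9.86-fold, adjusted p = 3.01e-06). For Tat and Got1 the lowest newborn array lay above the highest fetal one. Sds, as 1 of the 12 largest rises, was chosen among genes without overlap. Aass, which starts lysine breakdown, rose 4.57-fold (difference 2.19, SE 0.18). Tdo2, the tryptophan dioxygenase, did not stand well above background in any KO fetus and was at least 3.17-fold higher at P0, although within slide 2 the call was lost (adjusted p = 0.0791) and after normexp background correction the log2 difference was 0.48.

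Genes of the urea cycle itself moved in opposite directions. Arg1, the arginase that releases urea, rose from 5.94, 5.82 and 6.00 to 7.22, 7.39, 7.15, 7.22 and 7.13 (2.47-fold, adjusted p = 1.97e-06). Otc, the mitochondrial ornithine transcarbamylase earlier in the cycle, fell from 2.60, 2.40 and 2.79 to 1.47, 0.73, 1.24, 0.91 and 0.62 (3.04-fold lower, adjusted p = 0.000132). Newborn and fetal arrays did not overlap for either gene. Cps1, which makes the carbamoyl phosphate that Otc uses, was at 4.57 to 4.85 before birth and at 5.94, 5.94, 5.37, 5.60 and 4.53 after it. The last of these, KO P0 replicate 5, lay below the lowest fetal value, and the difference of 0.73 did not pass the test (adjusted p = 0.111). Without that array Cps1 was 0.97 higher and passed (adjusted p = 0.0171), as it did within slide 2 (1.25, adjusted p = 0.0181), in the deposited value table (0.81, adjusted p = 0.0488) and without the arrays that held other tissues (0.89, adjusted p = 0.00677), but not with slide as a block (adjusted p = 0.254). In the fit with slide as a block 13 members of the list rose and 4 fell.

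Most measured genes of glycogen handling fell. Of 12 measured members 9 fell and 0 rose (median -0.80). Pygl, the liver phosphorylase that breaks glycogen down, dropped from 6.50, 6.57 and 6.51 to 5.79, 5.43, 5.68, 5.50 and 5.66 (1.89-fold lower, adjusted p = 8.55e-05). Gbe1, the branching enzyme of glycogen synthesis, was 2.09-fold lower (adjusted p = 0.000377). Gckr, a regulator of glucose phosphorylation, went from 5.30, 5.52 and 5.09 to 4.41, 3.96, 4.24, 4.07 and 4.30 (2.15-fold lower, adjusted p = 0.000455). Gys2, the liver glycogen synthase, fell by 0.62 (adjusted p = 0.00737), but with slide fitted as a block its difference was -0.52 (adjusted p = 0.0739), and 4 of the 12 genes were called there.

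Sterol synthesis had the lowest median of the 39 gene lists. Of 25 measured genes for making or taking up cholesterol, 24 fell and 1 rose (median -1.91), against 11.4% of all genes called lower. Hmgcs1, a synthase at the start of the pathway, fell from 6.97, 6.82 and 6.78 to 4.05, 3.87, 3.52, 3.84 and 3.31 (8.8-fold, adjusted p = 7.51e-07). Sqle, the squalene epoxidase, lay between 4.98 and 5.09 on the fetal arrays and between 2.69 and 2.90 on the newborn ones, and it fell by 2.25 (SE 0.10, adjusted p = 8.81e-08). Further along the pathway, Idi1 fell 6.02-fold, Cyp51 9.78-fold and Sc4mol (now Msmo1) 6.9-fold.

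Insig1 and Insig2 hold the sterol-sensing SREBP complex in the endoplasmic reticulum, and they went opposite ways. Insig1 was at 2.71, 2.54 and 2.30 before birth and at -1.15, -1.39, -1.25, -1.35 and -0.53 after it, 12.6-fold lower (difference -3.65, SE 0.26, adjusted p = 2.18e-06). Insig2, named here after its value was seen because it was the 1 member that rose, was 1.27 higher (SE 0.27, adjusted p = 0.00569; with slide as a block, adjusted p = 0.0621). Srebf1, the SREBP gene that drives fatty acid synthesis, fell from 0.14, 0.10 and 0.01 to -2.84, -2.78, -3.22, -3.39 and -3.46 (9.35-fold, SE 0.16, adjusted p = 1.43e-07). Its fetal levels were nearly equal. Insig1 and Srebf1 were among the 12 largest falls, which were chosen among genes whose ages did not overlap. With slide fitted as a block 22 of the 25 sterol genes fell, and within slide 2 alone 20 did.

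**Figure D2:**
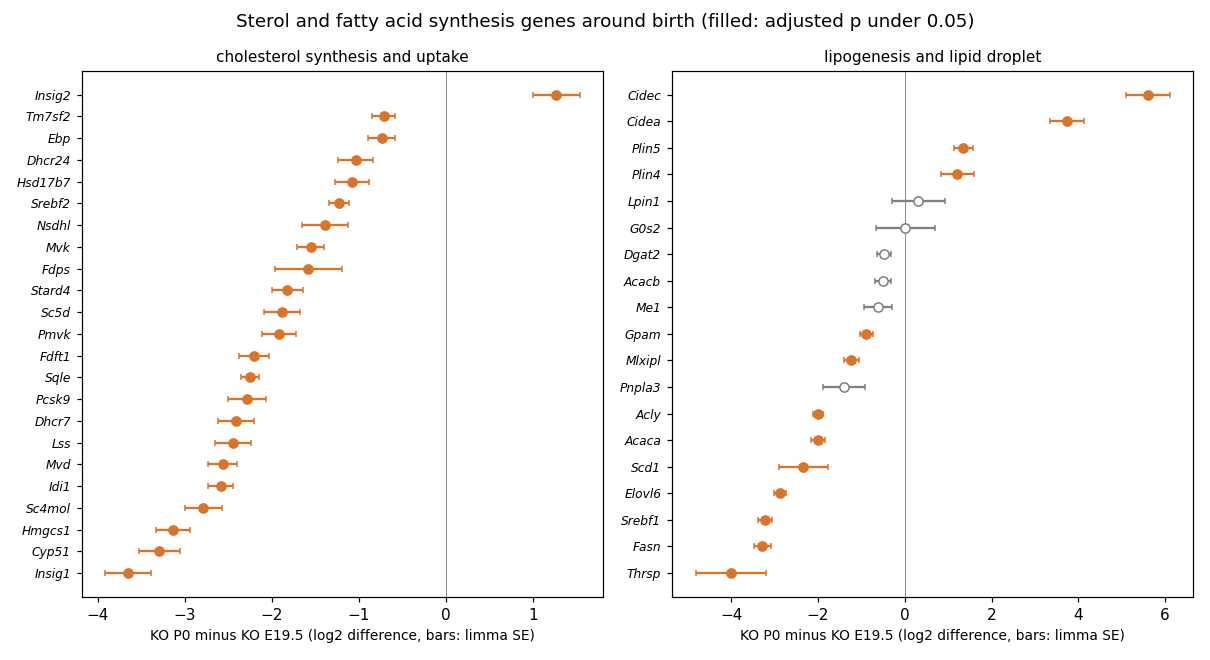
Log2 difference between KO P0 and KO E19.5 for genes of cholesterol synthesis and uptake and of lipogenesis and lipid droplets, with bars for the SE; filled points have adjusted p below 0.05. Every sterol gene drawn except Insig2 lies on the lower side, while in the lipogenesis list the lipid droplet genes lie on the higher side.

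In the list for fatty acid synthesis and lipid droplets 9 of 19 measured genes fell and 4 rose (median -0.89). Fasn, the fatty acid synthase, went from 1.64, 1.84 and 1.38 to -1.83, -1.56, -1.91, -1.56 and -1.48 (9.76-fold lower, SE 0.19, adjusted p = 5.75e-07). Elovl6, which lengthens its product, went from 4.47, 4.48 and 4.43 to 1.84, 1.91, 1.36, 1.30 and 1.51 (7.34-fold lower, adjusted p = 8.81e-08). Scd2, a desaturase prominent in late fetal life, fell 9.91-fold, to 2.96 to 3.15 on 4 newborn arrays and 3.86 on KO P0 replicate 5. Its relative Scd1 fell from 4.56, 4.64 and 4.21 to 1.95, 1.88, 2.01, 1.93 and 2.86 (adjusted p = 0.0118), and Thrsp, a lipogenic gene under carbohydrate and thyroid hormone control, from 1.69, 2.69 and 0.54 to -2.78, -2.72, -3.23, -1.91 and -1.22 (adjusted p = 0.00452). Once slide was fitted as a block, neither Scd1 (-1.78, adjusted p = 0.107) nor Thrsp (-3.34, adjusted p = 0.0509) passed. Pnpla5, a lipase of the patatin family, did not stand well above background in any newborn and was at least 7.42-fold lower there, but within slide 2 it did not pass (adjusted p = 0.0767), and normexp background correction, with an offset that draws dim signals together, gave -1.40 on the log2 scale.

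The 4 genes of that list that rose, Cidec, Cidea, Plin4 and Plin5, all encode proteins of the lipid droplet surface; Plin4 (difference 1.21, adjusted p = 0.0397) and Plin5 (difference 1.34, adjusted p = 0.00115) are named after their values were seen. Plin4 lost its call with slide as a block (adjusted p = 0.0826), with only the 8 KO arrays (adjusted p = 0.102), without WT E19.5 replicate 3 (adjusted p = 0.0513) and without any KO array but KO P0 replicate 5 (adjusted p from 0.0534 to 0.108). Cidec, which lets droplets fuse and grow, was at -5.08, -3.80 and -4.84 in the fetuses, well above background on 2 of 3 arrays, and at 0.23, 1.52, 0.51, 2.43 and 0.48 in the newborns (48.7-fold, difference 5.61, SE 0.51, adjusted p = 1.51e-05). The difference of Cidec was 3.60 after normexp background correction and 4.18 in the deposited table and with the mean of its probes. Cidea, its relative known from brown fat, rose from -0.36, -0.53 and -0.95 to 2.51, 3.12, 2.75, 3.41 and 3.86 (13.4-fold, adjusted p = 5.67e-05). Both were among the 12 largest rises, which were chosen among genes whose newborn and fetal arrays did not overlap.

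Genes that the nuclear receptor PPARA switches on when fatty acids reach the liver included 8 of 21 measured members that rose and 2 that fell (median 0.81). Cidec is counted in this list and in the lipid droplet list. Pdk4, the kinase that shuts pyruvate out of the mitochondrial cycle, rose from 2.00, 1.65 and 1.54 to 3.59, 4.62, 3.56, 4.93 and 4.12 (5.42-fold, adjusted p = 0.000129). Cyp4a14, an omega-hydroxylase of fatty acids, was 3.69-fold higher, at 6.46 to 6.99 on 4 newborn arrays and 5.21 on KO P0 replicate 5, against 4.36 to 4.77 in the fetuses. Its neighbour Cyp4a10 was at 5.56 to 6.00 on 4 newborn arrays and at 4.17 on KO P0 replicate 5, within the fetal range of 4.07 to 4.83, and did not pass (difference 0.94, adjusted p = 0.0794). Cyp4a10 passed without that array (1.25, adjusted p = 0.00356), within slide 2 (1.55, adjusted p = 0.0269), with the replicate number as a block (adjusted p = 0.00908), in the deposited table (adjusted p = 0.0484) and without the arrays that held other tissues (adjusted p = 0.00755), but not with slide as a block (adjusted p = 0.152). Angptl4, a secreted inhibitor of lipoprotein lipase, rose 1.76-fold and Acot2, a mitochondrial acyl-CoA thioesterase, 3.09-fold. Fgf21, a fasting hormone of the liver, varied widely at both ages: it was at -4.40, -3.12 and -7.52 before and at -3.22, -3.28, -3.29, -2.73 and -6.78 after birth (adjusted p = 0.425). Without KO P0 replicate 5, 12 members rose and 2 fell; with slide as a block, 5 rose and 2 fell.

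Genes of mitochondrial fatty acid oxidation went both ways over all arrays. Cpt1a, the carnitine palmitoyltransferase that admits fatty acids, rose from 4.30, 4.08 and 4.17 to 5.47, 5.41, 5.31, 5.58 and 5.08 (2.28-fold, adjusted p = 8.09e-05), and Eci2, an isomerase for unsaturated chains, 1.82-fold. Slc25a20, the carnitine carrier, was 0.77 higher (adjusted p = 0.0285), but the call was lost with slide as a block (adjusted p = 0.134) without any single KO E19.5 array (adjusted p from 0.0501 to 0.114) and without KO P0 replicate 1 or 2 (adjusted p = 0.0507 and 0.0557). Acadm, the medium-chain dehydrogenase, was at 5.70 to 6.03 before and 4.99 to 5.77 after birth (difference -0.44, adjusted p = 0.0695). Hadh, the hydroxyacyl-CoA dehydrogenase for shorter chains, fell 1.76-fold, from 4.70, 4.74 and 5.04 to 4.32, 3.81, 4.04, 3.95 and 3.94 (adjusted p = 0.00438), though not within slide 2 (adjusted p = 0.0749). In all, 4 of 17 measured genes of this list rose and 5 fell (median -0.16), with slide as a block 2 rose and 2 fell, and within slide 2 alone 4 rose and 0 fell (median -0.03).

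No gene of ketone body synthesis passed as higher. Bdh1, which turns acetoacetate into hydroxybutyrate, fell from 5.66, 5.51 and 5.65 to 4.25, 3.88, 4.18, 4.02 and 4.52 (2.71-fold lower, adjusted p = 8.38e-05). Of the 4 genes 0 rose and 2 fell; the other fall, of Acat1, was 0.42 on the log2 scale (adjusted p = 0.0149) and was lost with slide as a block (adjusted p = 0.0673) and without KO E19.5 replicate 1 (adjusted p = 0.0773). Of 25 genes of oxidative phosphorylation 1 fell and 0 rose (median -0.00).

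Of 25 measured genes of glycolysis and of the response to low oxygen, 10 fell and 0 rose (median -0.32), and with slide fitted as a block 6 fell. Ankrd37, a target of the hypoxia-inducible factor, went from 0.80, 1.20 and 0.19 to -1.31, -1.90, -1.0, -1.28 and -1.39 (4.31-fold lower, adjusted p = 0.000225). Ndrg1, another, lay at 5.52 to 5.59 before and at 4.73, 4.22, 4.07, 3.85 and 3.47 after birth (2.79-fold lower, adjusted p = 0.000482). Pfkfb3, which makes the activator of phosphofructokinase, was at 1.66 to 1.73 before and 0.21 to 0.46 after (2.61-fold lower, adjusted p = 3.35e-06). Egln3, the oxygen-sensing prolyl hydroxylase that the factor itself induces, fell 2.7-fold, though not within slide 2 (adjusted p = 0.0774). Other well-known targets of the factor did not pass: Vegfa differed by -0.04 (adjusted p = 0.859), Slc2a1 by 0.24 (adjusted p = 0.32) and Hk2 by -0.17 (adjusted p = 0.428).

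**Figure D3:**
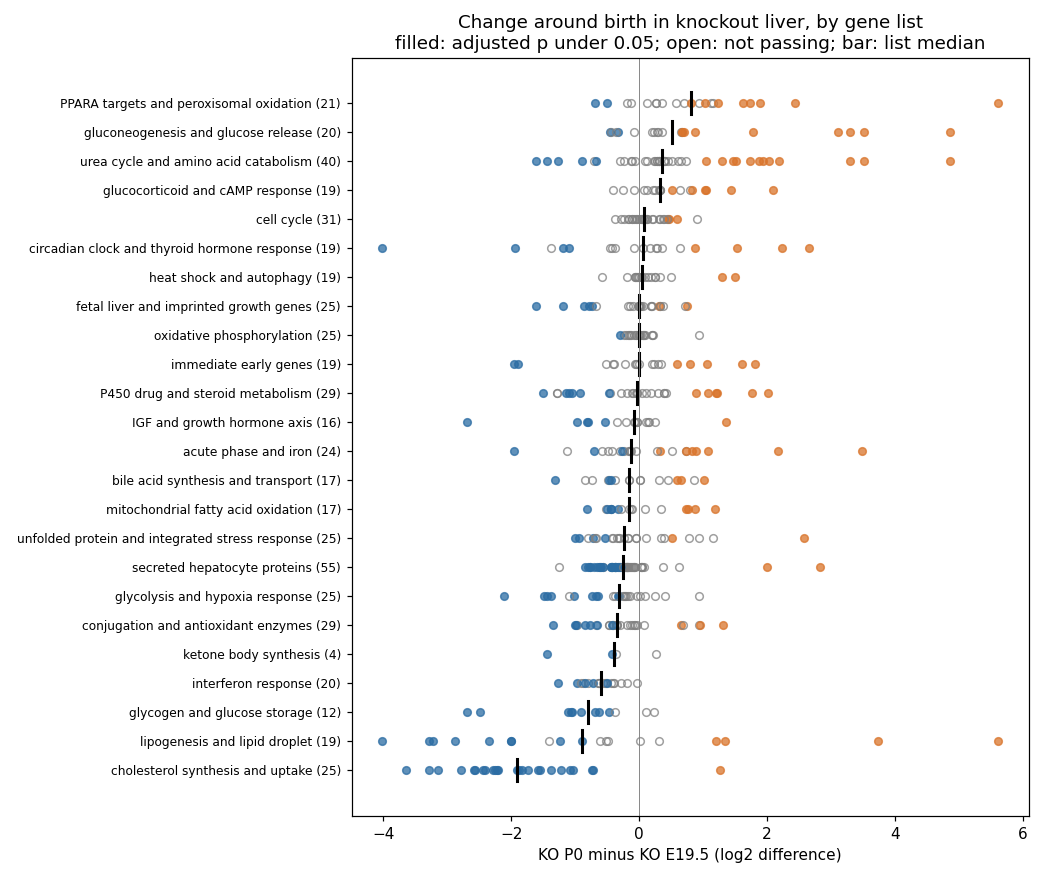
Log2 difference between KO P0 and KO E19.5 for the measured members of each gene list, with the number measured beside the list's name; orange points rose and blue points fell at adjusted p below 0.05, open points did not pass, and the bar marks the list's median. Cholesterol synthesis has the lowest median, -1.91, and the PPARA list the highest of those plotted, 0.81.

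Genes of the growth hormone and prolactin pathway went both ways. Prlr, the prolactin receptor, fell from 2.01, 1.92 and 2.32 to 0.01, -0.74, 0.17, -1.07 and -1.44 (6.48-fold, adjusted p = 0.000272), and Cish, a gene that growth hormone and prolactin induce through STAT5, from 2.73 to 2.86 before birth to 1.72 to 2.23 after it (1.74-fold, adjusted p = 0.000456). Igfbp3, the main carrier of IGF1 in blood, rose 2.58-fold, from -0.55, -0.39 and -0.78 to 0.88, 0.41, 1.06, 0.69 and 0.93 (adjusted p = 0.000234). The hormone gene Igf1 did not pass (difference -0.07, adjusted p = 0.829), nor did the brightest probe of the receptor gene Ghr (-0.21, adjusted p = 0.303), but the mean of the Ghr probes fell by 0.55 (adjusted p = 0.00659). Of 16 measured genes of the IGF and growth hormone list 1 rose and 5 fell (median -0.08), against 8.57% and 11.4% of all genes. With slide as a block 2 rose and 4 fell.

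Among genes that glucocorticoids or cAMP induce, 6 of 19 rose and 0 fell (median 0.32). Gadd45b, a stress and growth-arrest gene, went from 2.22, 2.20 and 2.03 to 3.53, 3.97, 3.27, 3.65 and 3.52 (2.71-fold, adjusted p = 4.1e-05), and Dusp1, a phosphatase that turns off MAP kinases, from 0.30, 0.39 and 0.47 to 1.27, 1.89, 1.48, 1.24 and 1.26 (2.06-fold, adjusted p = 0.000237). Sgk1, a kinase gene induced by glucocorticoids, was 4.25-fold higher, but its newborn levels ran from 2.41 to 5.05, and within slide 2 it did not pass (adjusted p = 0.112). Other classical glucocorticoid targets did not pass, among them Fkbp5 (0.32, adjusted p = 0.153), Tsc22d3 (0.33, adjusted p = 0.193) and Per1 (-0.08, adjusted p = 0.851). The fit with slide as a block had 4 that rose and 0 that fell.

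Immediate early genes, which respond to stimuli within minutes, went both ways, 5 of 19 higher and 2 lower (median -0.00). Ctgf (now Ccn2), a matrix-associated growth factor, rose 3.05-fold, from 1.11, 0.94 and 1.37 to 2.27, 2.50, 2.20, 3.43 and 3.34 (adjusted p = 0.00194). Maff, a small Maf transcription factor, fell 3.72-fold, from 1.71, 1.26 and 1.76 to 0.14, -0.37, -0.06, -1.39 and 0.07 (adjusted p = 0.00067), and Egr1 fell 3.87-fold (adjusted p = 0.0085), though not within slide 2 (adjusted p = 0.0531). Only 1 rose and 2 fell once slide was a block. Of the clock genes, the repressor Nr1d1 was at -3.33, -3.41 and -3.81 before birth and at -1.21, -1.47, -0.84, -1.45 and 0.64 after it (6.28-fold higher, adjusted p = 0.00664), while Arntl, the activator it represses, differed by 0.06 (adjusted p = 0.729). Of 19 measured genes of the list for the clock and thyroid hormone response, 4 rose and 4 fell (median 0.06). With slide as a block 2 of them rose and 3 fell. The sources used here do not give the time of day at collection.

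Of 29 measured genes of the drug- and steroid-metabolising cytochromes P450, 6 rose and 6 fell (median -0.04). Cyp3a13 rose from 2.42, 2.24 and 2.57 to 3.75, 4.25, 4.02, 4.79 and 5.34 (4.06-fold, adjusted p = 0.000632), and Cyp2b10, the classical target of the receptor CAR, from 0.13, -0.39 and -0.32 to 1.52, 1.94, 1.35, 1.73 and 1.33 (3.4-fold, adjusted p = 0.00328). Cyp2d9 was 2.3-fold higher (adjusted p = 0.00056). Cyp2e1, which metabolises ethanol and is known to rise after birth, was at 4.33, 4.63 and 4.41 in the fetuses and 4.62, 4.11, 4.24, 4.88 and 4.21 in the newborns, with overlap (difference -0.04, SE 0.19, adjusted p = 0.898). Members of these families are near-identical copies in places, so a probe may read a relative too. A block for slide left 4 that rose and 5 that fell.

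Of 29 measured conjugation and antioxidant enzymes 3 rose and 7 fell (median -0.35), and the 7 that fell were all glutathione transferases. Gsta3 went from 7.96, 7.50 and 7.72 to 6.44, 6.47, 6.38, 6.18 and 6.45 (2.53-fold lower, adjusted p = 1.94e-05), Gstm6 was 1.99-fold lower and Gstm1 1.7-fold lower (adjusted p = 0.00126 and 0.000239). Hmox1, the haem oxygenase that degrades haem and is also a macrophage gene, rose from 5.01, 4.67 and 4.22 to 5.75, 5.75, 5.46, 5.73 and 5.20 (1.92-fold, adjusted p = 0.00382). Nqo1, a target of the oxidant-response factor NRF2, differed by 0.07 (adjusted p = 0.805). A block for slide left 1 that rose and 7 that fell.

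Abcb11, the bile salt export pump, fell from 5.11, 4.85 and 4.95 to 3.90, 3.44, 3.60, 3.49 and 3.84 (2.49-fold lower, SE 0.20, adjusted p = 0.000629). Cyp7a1, the rate-limiting enzyme of bile acid synthesis, was at 2.51, 2.28 and 2.29 before birth and at 3.40, 3.32, 3.39, 3.97 and 2.00 after it, so KO P0 replicate 5 was the lowest of all and the difference of 0.86 did not pass (adjusted p = 0.0955). Cyp7a1 passed without that array (1.16, adjusted p = 0.00495), without the arrays that held other tissues (1.23, adjusted p = 0.00402) and with the replicate number as a block (adjusted p = 0.0211), but not with slide as a block (adjusted p = 0.156). Nr0b2, the bile acid-induced repressor SHP, differed by -0.37 (adjusted p = 0.547). Over the list 3 of 17 measured genes rose and 3 fell (median -0.15), and with slide as a block 2 rose and 2 fell.

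Of 55 measured genes for proteins the hepatocyte secretes, 22 fell and 2 rose (median -0.25). The rises were both apolipoproteins of triglyceride-rich particles: Apoa5 went from 1.65, 1.06 and 0.27 to 2.67, 3.31, 2.88, 3.64 and 2.43 (3.98-fold, adjusted p = 0.000566), and Apoa4 from -0.95, -0.69 and -2.67 to 1.08, 1.50, 0.79, 2.92 and 0.64 (7.08-fold, adjusted p = 0.0038), the latter not passing within slide 2 (adjusted p = 0.0882). F11, a coagulation factor, fell 1.74-fold, from 5.17 to 5.33 before birth to 4.33 to 4.66 after it (adjusted p = 0.000121). Ttr, the thyroid hormone carrier, was 0.43 lower (adjusted p = 0.00313), which median scaling reduced to 0.33 (adjusted p = 0.112). Alb differed by -0.18 (adjusted p = 0.14), in the range where signal followed array brightness weakly and differences may be distorted. A block for slide left 8 that fell and 2 that rose, and within slide 2 alone 1 fell and 1 rose. The list's median was -0.15 under quantile normalization, -0.13 with normexp and quantile normalization and -0.14 in the deposited table.

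Hamp, the gene of hepcidin, which closes the export of iron from cells, rose from 3.64, 2.38 and 1.93 to 5.39, 6.13, 5.98, 6.87 and 6.33, 11.2-fold (difference 3.49, SE 0.54, adjusted p = 0.000756). Serpina3n, an acute phase protease inhibitor, rose from 3.23, 3.49 and 2.91 to 4.67, 5.16, 4.85, 6.01 and 6.20 (4.49-fold, adjusted p = 0.000532). The newborn arrays lay above the fetal ones for both. Classical acute phase genes did not pass: Saa1 differed by -0.48 (adjusted p = 0.116), Saa2 by -0.42 (adjusted p = 0.539), Orm1 by -0.04 (adjusted p = 0.948) and Lcn2 by -0.29 (adjusted p = 0.203), while Saa4, which is made constitutively, fell 3.87-fold (adjusted p = 0.00016; within slide 2, adjusted p = 0.0503). In all 7 of 24 rose and 3 fell (median -0.13), and with slide as a block 3 rose and 2 fell.

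Of 25 genes known as markers of the fetal liver or as imprinted growth genes 2 rose and 5 fell (median 0.01), against 8.57% and 11.4% of all genes, and with slide as a block 1 rose and 2 fell. Afp, the fetal albumin relative, was at 9.68, 9.51 and 9.52 before and 9.44, 9.48, 9.46, 9.31 and 9.43 after birth (difference -0.15, adjusted p = 0.225, among the brightest genes, whose differences may be distorted). Igf2, the fetal growth factor, was at 4.65 to 5.03 before and 4.41 to 5.03 after (difference 0.01, adjusted p = 0.973), and Lin28b, a repressor of let-7 microRNAs, at 0.34 to 0.51 and 0.33 to 1.07 (adjusted p = 0.511). Dlk1, the paternally expressed end of the imprinted domain that holds the deleted cluster, differed by 0.06 (adjusted p = 0.854). Grb10, an imprinted inhibitor of insulin signalling, fell from 3.88, 3.65 and 3.53 to 2.83, 2.72, 2.61, 2.19 and 2.13 (2.28-fold, adjusted p = 0.000248). Igf2r, the imprinted receptor that degrades IGF2, fell 1.82-fold (adjusted p = 0.000879; within slide 2, adjusted p = 0.0597).

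Maternally expressed Meg3, from the same domain as the cluster, was at 6.12, 6.11 and 6.02 before and at 5.71, 4.83, 5.53, 5.17 and 5.29 after birth (1.71-fold lower, adjusted p = 0.00614), and Dio3os, antisense to the deiodinase gene Dio3, was 2.12-fold lower (adjusted p = 0.01). Neither passed with slide fitted as a block (adjusted p = 0.056 and 0.0967), and Dio3os also missed without KO E19.5 replicate 1 (adjusted p = 0.0506). Mirg and Dio3 itself differed by 0.09 and -0.16 (adjusted p = 0.828 and 0.728). In total 2 of 8 measured genes of the domain fell and 0 rose, and 0 with slide as a block.

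Marker genes of cell types other than hepatocytes were called at a share near that of all genes, 27 of 161 (16.8%) against 20%, with 17 higher and 10 lower. In whole liver, fewer cells of a type and less RNA per cell cannot be told apart. Of 33 erythroid genes 3 rose and 2 fell (median 0.07), and Alas2, the haem synthesis enzyme of red cell precursors, was at 6.90 to 7.20 before and 6.58 to 6.92 after birth (adjusted p = 0.292). The embryonic globin Hbb-bh1 fell from -0.24, -0.23 and -0.16 to -1.05, -1.43, -1.09, -1.70 and -1.31 (2.16-fold, adjusted p = 0.000365, and within slide 2 adjusted p = 0.0581). Hbb-bh1 was the lowest of the erythroid list, whose differences ran from -1.11 to 0.86, so it does not stand for the list. Granule genes of neutrophil precursors, Mpo and Elane, differed by 0.05 and -0.12 (adjusted p = 0.852 and 0.547), and 3 of 20 genes of that lineage fell and 0 rose. Pf4 of platelets differed by 0.02 (adjusted p = 0.903), Cd79b of B cells by -0.07 (adjusted p = 0.787) and Kit of stem and mast cells by 0.16 (adjusted p = 0.327). The cell cycle list had 3 of 31 genes higher and 0 lower (median 0.07), the rises near the 8.57% of all genes. Mki67 was at 6.41 to 6.56 before and 6.29 to 6.77 after birth (adjusted p = 0.781). With slide as a block 0 genes of the cell cycle list were called, by limma.

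A few sinusoidal and mesenchymal genes rose. Lyve1, a hyaluronan receptor of liver sinusoids and lymphatics, went from 2.24, 2.10 and 1.96 to 2.90, 3.04, 3.12, 3.09 and 3.48 (2.04-fold, adjusted p = 0.000446), and the brightest probe of Stab2, of the same cells, differed by 0.05 (adjusted p = 0.804), but the mean of the Stab2 probes rose by 0.58 (adjusted p = 0.0108). Mrc1, the mannose receptor of macrophages and sinusoids, rose 1.71-fold (adjusted p = 0.00159), and the Kupffer cell genes Cd5l and Vsig4 differed by -0.07 and -0.11 (adjusted p = 0.818 and 0.675). Pdgfra, a receptor of fibroblasts, rose from -1.28, -1.16 and -1.39 to -0.28, -0.38, -0.19, 0.11 and -0.18 (2.14-fold, adjusted p = 9.82e-05), and Hand2, a transcription factor of stellate cells, 1.66-fold (adjusted p = 0.00262). Lrat, which stores vitamin A in stellate cells, differed by -0.32 (adjusted p = 0.377). Of 16 endothelial genes 4 rose and 0 fell (median -0.01), and of 18 stellate and fibroblast genes 5 rose and 0 fell (median 0.16), against 8.57% of all genes higher. With slide as a block 2 and 3 rose, and within slide 2 alone 1 and 2.

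All 20 measured interferon-stimulated genes had a difference below 0 (median -0.59), and 5 of them fell. Isg15, a ubiquitin-like interferon target, was at 7.42 to 7.55 before and 6.31 to 6.87 after birth, so the ages did not overlap, but the difference of -0.88 (SE 0.45) did not pass (adjusted p = 0.182). The WT newborn arrays, which share in the spread, ran from 4.11 to 6.70 for Isg15. With only the 8 KO arrays in the model Isg15 passed at the same difference (adjusted p = 0.00582), and without the arrays that held other tissues at -0.92 (adjusted p = 0.00376). Cxcl10, an interferon-induced chemokine, went from 2.30, 1.86 and 1.81 to 0.34, 0.38, 0.66, 0.49 and 1.72 (adjusted p = 0.0197), with KO P0 replicate 5 close to the fetal arrays. The calls rested on the arrays used: with slide as a block 0 of 20 passed and the median was -0.24, and with the 6 arrays that carried transcripts of other tissues left out, all 4 WT P0 arrays among them, 17 fell (median -0.67). The fall of Cxcl10 did not pass with slide as a block (adjusted p = 0.128) and without KO E19.5 replicate 1 (adjusted p = 0.0937) or 2 (adjusted p = 0.0529).

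Of the unfolded protein and amino acid stress genes 2 of 25 rose and 4 fell (median -0.24), near the shares of all genes, 8.57% and 11.4%. With slide as a block 4 rose and 1 fell, and within slide 2 alone 3 rose and 3 fell. Hspa5, the chaperone BiP, differed by -0.31 (adjusted p = 0.343). Chac1, which degrades glutathione, was at -2.36, -2.18 and -2.27 in the fetuses and at 1.55, 1.27, 1.49, -1.14 and -1.59 in the newborns (6-fold higher, adjusted p = 0.0189), so that 3 newborn arrays stood well above the other 2, and the call was lost without any single KO E19.5 array (adjusted p from 0.0548 to 0.0682). Ctsl, a lysosomal protease, rose from 6.83 to 6.94 before birth to 7.93 to 8.37 after it (2.45-fold, adjusted p = 0.000198). Of 19 heat shock and autophagy genes 2 rose and 0 fell (median 0.04), the rises near the 8.57% of all genes.

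Several of the largest changes were in genes outside these lists. Sult1e1, the sulfotransferase that inactivates oestrogens, was at -7.12, -7.32 and -7.53 in the fetuses, not well above background there, and at -3.04, -1.43, -3.06, -0.32 and -1.49 in the newborns, at least 10.3-fold higher (adjusted p = 7.74e-05). Treh, which splits the sugar trehalose, was at least 8.33-fold higher and Galntl2, a glycosyltransferase gene, at least 9.07-fold, both from below background. Esrrg, an orphan nuclear receptor that shares targets with Ppargc1a, was well above background on 1 of 3 fetal arrays and rose from -5.48, -5.02 and -4.57 to -1.50, -0.92, -1.21, -1.30 and -2.18 (12.1-fold, adjusted p = 3.85e-05). Wfikkn2, a secreted inhibitor of myostatin and GDF11, rose 12.5-fold (-3.75 to -3.52 before, -0.65 to 0.68 after, adjusted p = 1.06e-05). Fibin, a secreted protein gene, rose from -1.93, -2.12 and -2.46 to 0.21, 1.87, 1.38, 2.47 and 2.72 (14.9-fold, adjusted p = 9.76e-05). The size of these rises from dim levels depended on the background correction, and with normexp and the 75th percentile the difference was 1.74 for Sult1e1, 1.29 for Treh, 1.33 for Galntl2, 1.73 for Esrrg, 2.51 for Wfikkn2 and 3.27 for Fibin. The calls held there.

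Itgae, an integrin chain of lymphocytes in epithelia, was well above background on 1 of 3 fetal arrays and rose from -4.80, -5.98 and -4.76 to -1.0, -0.45, -1.12, -1.05 and -1.01 (19.1-fold, adjusted p = 6.95e-05; difference 4.25, against 1.92 with normexp and 2.50 in the deposited table). Try5, a pancreatic trypsin gene with near-identical relatives, was at least 10.7-fold higher (adjusted p = 0.0189), but the call was lost with slide as a block (adjusted p = 0.164), with the replicate number as a block (adjusted p = 0.066), and without KO E19.5 replicate 2 or 3 (adjusted p = 0.0686 and 0.066). Try5 also missed with normexp (1.60, adjusted p = 0.278, and 1.78, adjusted p = 0.24, after quantile normalization) and in the deposited table (2.27, adjusted p = 0.151). Exocrine pancreas genes had a median level of -0.76 on KO P0 replicate 3 against -2.60 to -1.66 on the other KO arrays. Of 15 such genes measured, 2 rose and 0 fell. Among WT newborns Try5 was highest on replicates 3 and 4 (2.92 and 4.70), where the pancreas medians were 0.94 and 2.76. The part of pancreas transcripts in the rise of Try5 was not tested. Npy, the neuropeptide Y gene, was below background in the fetuses and at least 8.21-fold higher in the newborns (-2.95, -1.92, -2.38, -2.09 and -1.66, adjusted p = 0.00754), but it missed within slide 2 (adjusted p = 0.0924), in the deposited value table (adjusted p = 0.059) and after normexp background correction (adjusted p = 0.15 and 0.0897). Sftpa1, a surfactant protein gene of lung, rose 7.52-fold, from -4.84, -4.58 and -4.49 to -1.76, -1.07, -2.11, -1.24 and -2.46 (adjusted p = 6.64e-05); 2 of 3 fetal arrays were well above background for Sftpa1, and normexp gave a difference of 1.28. Of the 9 measured kidney, lung and skin genes it was the 1 that was called. Its highest newborn level, -1.07, was on KO P0 replicate 2, the array with the highest median of that list. The part of other tissues in the rise of Sftpa1 was not tested.

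Falls of similar size included Prok1, a secreted angiogenic ligand, at 1.81, 2.30 and 2.43 before birth and at -1.30, -3.96, -1.48, -3.99 and -4.08 after it (35.3-fold lower, difference -5.14, SE 0.62, adjusted p = 0.000129). The newborn arrays formed a higher pair and a lower trio. That all lay below the fetal ones was part of how Prok1 was chosen. Glp2r, the receptor for glucagon-like peptide 2, was well above background on 2 of 5 newborn arrays and fell 9.11-fold (-2.41 to -2.19 before, -6.93 to -4.84 after, adjusted p = 0.000198), Sytl5, a vesicle-docking protein gene, 9.63-fold (adjusted p = 5.18e-05) and Rnf186, a ubiquitin ligase gene, 9.56-fold (adjusted p = 0.00256). Dnaic2, a motor protein gene of cilia, fell 9-fold (adjusted p = 0.011), but not with slide as a block (difference -2.36, adjusted p = 0.0881) or without KO E19.5 replicate 2 (adjusted p = 0.053). Sytl5 was well above background on 1 of 5 newborn arrays, Rnf186 on 2 and Dnaic2 on 4. With normexp and the 75th percentile the differences were -1.36 for Glp2r, -1.06 for Sytl5, -1.43 for Rnf186, -1.92 for Dnaic2 and -4.14 for Prok1.

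The same contrast in WT littermates, between 4 P0 and 3 E19.5 arrays that share no sample with the KO ones, gave 4300 calls (19%), 1892 higher (8.37%) and 2408 lower (10.7%), with 7654 genes (33.9%) at an unadjusted p below 0.05. Calls of the same sign in both genotypes numbered 2253, which was 49.9% of the KO calls and 52.4% of the WT calls, and 2 had opposite signs. Whether called in WT or not, 4275 of the 4518 KO calls (94.6%) had the same sign there. The Pearson correlation of the KO and WT changes was 0.70 over all tested genes. Whether the KO change differed from the WT change was tested as an interaction term. It passed for 0 genes (0%) in limma at an adjusted p below 0.05, with 2120 genes (9.38%) at an unadjusted p below 0.05 and a smallest adjusted p of 0.117, for Tmem141, named after its value was seen. Other settings gave 0 to 18 genes. Pck1 changed by 3.11 in KO and 3.40 in WT (difference of the changes -0.30, adjusted p = 0.763), Srebf1 by -3.22 and -2.78 (-0.45, adjusted p = 0.584) and Cidec by 5.61 and 5.38 (0.22, adjusted p = 0.945).

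**Figure D4:**
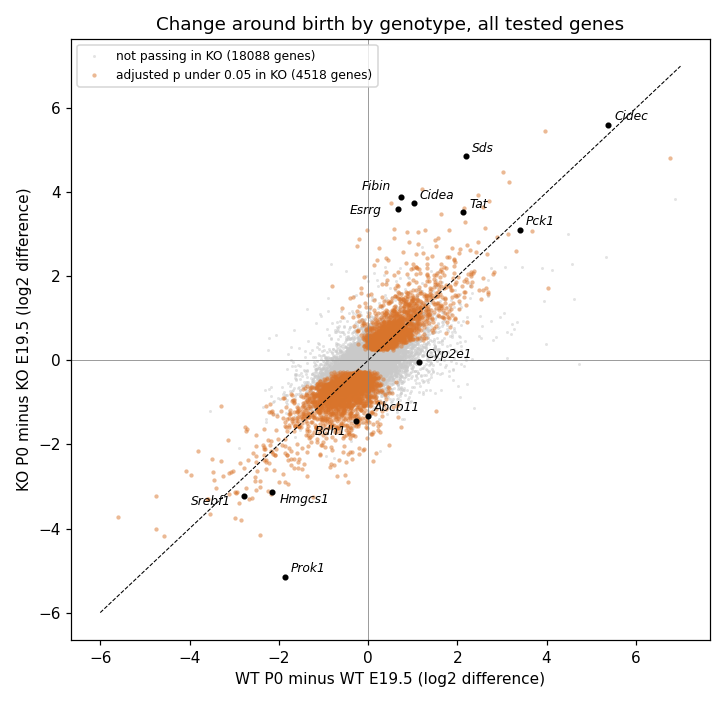
Log2 difference between P0 and E19.5 in KO liver (vertical axis) against the same difference in WT liver (horizontal axis) for all tested genes; genes called in KO are orange, and the dashed line is equality. Pck1 and Cidec lie near the line, Sds and Esrrg above it. Cidec, Sds and Esrrg were named for their large rises in KO.

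Among the genes named, some changed by more in one genotype than in the other without passing this test. Sds rose by 4.86 in KO and by 2.20 in WT, where its levels were -0.17, -0.43 and 0.34 at E19.5 and 3.00, 1.95, 1.86 and 1.65 at P0 (difference of the changes 2.66, SE 0.50, adjusted p = 0.159). Every KO newborn array lay above every WT newborn array, and every KO fetal array below every WT fetal array. The share of all genes whose KO and WT arrays lie apart in this way was not counted, so this separation of Sds is a description only. Esrrg rose by 3.60 in KO and differed by 0.68 in WT (2.92, SE 0.53, adjusted p = 0.159), Fibin by 3.90 and 0.74 (adjusted p = 0.177) and Cidea by 3.74 and 1.02 (adjusted p = 0.183). Bdh1 fell by 1.44 in KO and differed by -0.28 in WT (adjusted p = 0.173), and Abcb11 fell by 1.32 in KO and differed by 0.00 in WT (adjusted p = 0.183). Cyp2e1 differed by -0.04 in KO and rose by 1.15 in WT (adjusted p = 0.216). Without WT P0 replicate 1 the test passed 3 genes, Tmem141 among them (-1.28, adjusted p = 0.0172). Left without KO P0 replicate 1, the fit passed 18 genes, Sds (2.90, adjusted p = 0.0235) and Fibin (3.54, adjusted p = 0.02) among them, and with normexp background correction it passed 5, Esrrg (2.05, adjusted p = 0.0339) and Tmem141 (-1.22, adjusted p = 0.0339) among them. The WT newborn arrays all held transcripts of other tissues, so these comparisons could not be repeated without such arrays.

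Correlations between KO arrays over all genes were 0.979 to 0.991 within P0 and 0.992 to 0.993 within E19.5, against 0.970 to 0.984 across ages. KO P0 replicate 5 stood apart in several lipid genes, as the values above show for Insig1, Scd1, Scd2, Cyp4a10 and Cyp7a1. It was also the array with skeletal muscle transcripts, and the part of these in its lipid values was not tested. KO P0 replicate 2 had the highest levels of Pck1, G6pc, Tat, Got1 and Ppargc1a, and carried kidney, lung and skin transcripts, whose part was likewise not tested. Without replicate 2 the gluconeogenesis list had 9 genes higher and 1 lower, and without replicate 5 the lipogenesis list had 4 higher and 10 lower and the cholesterol list 1 and 24.

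**Figure D5:**
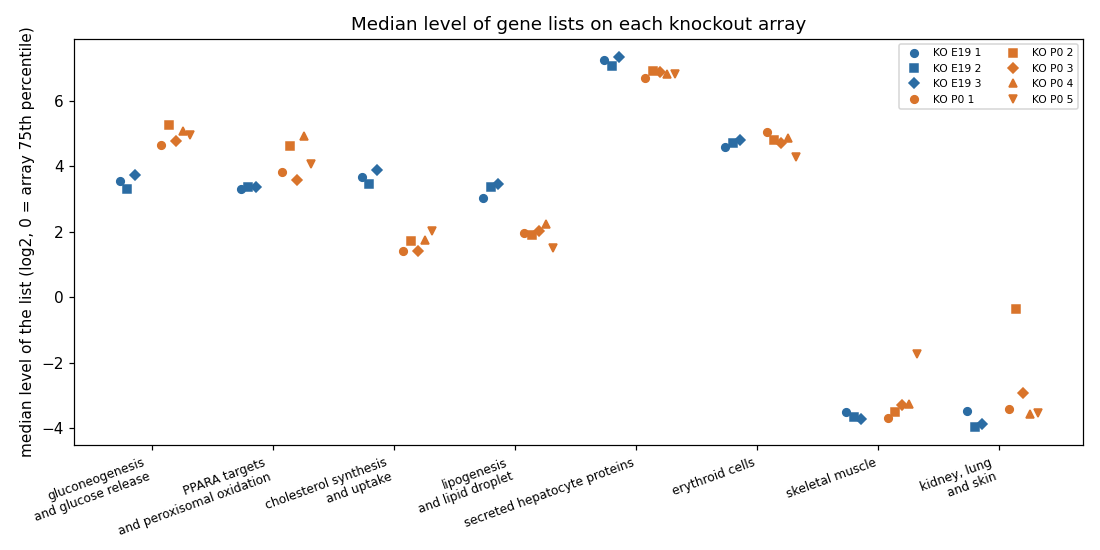
Median level (log2, 0 = the array's 75th percentile) of selected gene lists on each of the 8 KO arrays, with 1 symbol per array. The cholesterol synthesis median lies between 3.47 and 3.88 on the 3 fetal arrays and between 1.40 and 2.03 on the 5 newborn arrays.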

How the data were processed

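Spot intensities were extracted from the scans with Agilent Feature Extraction 10.10, per the file headers, which subtracted background within each array; the labels state low input Cy3 labelling of total RNA. The authors also deposited a table of log2 values; its scale was checked against the scanner values (r of 0.9992 to 0.9999 with the log2 mean signal), its column medians were all 7.86, its normalization is not stated, and it served as an alternative. Here, the level was the log2 processed signal less the 75th percentile of its array, taken from the 59305 spots that are no controls. Outlier spots were left missing, 34373 of 55681 probes were kept, those that 3 or more arrays of some group measured well above background, and the brightest kept probe stood for each gene. With limma 3.58.1 in R 4.3.3, 1 model of the 4 group means was fitted to 15 arrays, with empirical Bayes moderation and Benjamini-Hochberg adjustment over 22606 genes. Gene names are those of the array design; 15303 matched RefSeq, 1583 of them under another current symbol. The number of arrays limits the precision.

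Where a group's arrays were all below background, a bound replaced the fold: the bright group's mean against, per array, the higher of the lowest signal among probes well above background and the dim probe's own. Genes were named by rule: the 12 largest called changes in each direction, anchor genes and up to 4 further called members of each of 39 lists. The 12 in each direction came only from genes whose ages did not overlap. They also had to stand well above background on every array of the higher group. Names that are only clone, prediction or accession IDs were left out. For these genes the lack of overlap was thus fixed by the choice. Some genes that this rule names are not reported here; the counts and medians of the lists include them. The members and lists were chosen with earlier results of these data known. Fits with other normalizations, filters, blocks and left-out arrays were run as alternatives, and the scripts were tested on simulated data. Replicate numbers 1 to 3 occur in both groups, but same-numbered arrays deviated from their group means with correlations of -0.07, 0.04 and -0.14, so the numbers were not taken as pairs.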

Additional observations from a re-analysis of the deposited data

Results flagged for a closer look

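Of 182 items examined for 1 array far from the other 4 in the KO P0 group, 143 named genes and 39 list medians, 17 had such an array (9.34%). The items share arrays and in part genes, and some genes were picked by their values. No chance rate can therefore be set beside this share. KO P0 replicate 5 was the array in 12 of the 17.

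Among lipid genes, KO P0 replicate 5 had Insig1 at -0.53 against -1.39 to -1.15 on the other newborn arrays, Scd1 at 2.86 against 1.88 to 2.01, and Scd2 at 3.86 against 2.95 to 3.15. On the same array Pnpla5 was at -5.45 against -7.19 to -6.86, Plin5 at 4.19 against 5.12 to 5.48, and Cyp4a10 at 4.17 against 5.56 to 6.00. Fgf21 was at -6.78 there against -3.29 to -2.73. Cxcl10 was at 1.72 against 0.34 to 0.66, Mirg at -0.409 against -1.57 to -1.34, and Lrat at -2.67 against -1.81 to -1.65. The median of the fetal liver and imprinted list was 3.16 on this array against 3.56 to 3.60, and that of skeletal muscle genes -1.73 against -3.68 to -3.27. The part of the muscle transcripts in the other values was not tested.

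KO P0 replicate 2 had Ppargc1a at 3.56 against 2.68 to 2.93, Itgae at -0.453 against -1.12 to -1.0, and Glp2r at -6.93 against -5.29 to -4.84. Its median of kidney, lung and skin genes was -0.364 against -3.57 to -2.92. KO P0 replicate 4 had Hand2 at 0.431 against -0.22 to -0.07.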

How the results depend on the processing

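The direction of all 100 called genes among the 143 named held in every alternative that gave a value, 31 for 99 of them and 30 for Sytl5, and 72 kept their call throughout. Some alternatives could not change a direction, because the KO difference is the same in them by construction. These are the fits without a WT array, with only the 8 KO arrays, with a trend and robust moderation, and with the stricter threshold. The 7 settings that leave out a WT array were chosen after seeing the data. Only the 8 KO arrays gave 4418 calls. Slide as a block gave 2127 calls (987 higher, 1140 lower); slide 2 alone, with 2 arrays a group, gave 1095 (490 and 605; 609 at least 2-fold); array brightness as a covariate gave 2385 (1136 and 1249). An adjusted p below 0.01 left 1904 (788 and 1116). Median scaling gave 1343 lower calls. At least 2-fold calls numbered 521 with normexp background correction under either normalization and 624 in the deposited value table. Leaving out each of the 15 arrays in turn gave 2306 to 4967 calls, 991 to 2113 higher, 1312 to 2854 lower and 877 to 1242 at least 2-fold. For the KO change minus the WT change, 0 genes passed in limma with the settings of the report. The count was 5 and 1 with normexp (75th percentile and quantile), 1 in the deposited table, 13 with a trend and robust moderation, and 0 to 18 with an array left out, 18 of them without KO P0 replicate 1 and 3 without WT P0 replicate 1. With the replicate number as a block 3131 genes were called (1319 higher, 1812 lower), and 2862 of the 4518 kept their call. The cause of these differences was not tested. For genes near background only a bound could be given, and the 57 brightest genes followed array brightness weakly, so their differences may be distorted.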
